A study of Mus musculus with 7 samples.

Results

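Imprinted genes that act on growth, 10 in number, were followed through 7 RNA-seq libraries of mouse embryonic fibroblasts (MEFs, primary connective tissue cells grown out of the embryo). They are H19, Meg3, Rian, Dlk1, Peg3, Peg10, Plagl1, Cdkn1c, Grb10 and Mest. The genes were chosen by symbol, and all 10 were found among the 49382 rows of the deposited table of expression values. Each value is a TPM, the share of a library's transcripts that came from a gene, scaled to a fixed total that is the same in every library and adjusted for transcript length. A change is the difference of log2(TPM + 1) between a condition and the control, and a gene was called changed when that difference passed 2-fold. Because 1 TPM is added before the logarithm, changes of low genes are understated.

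There was 1 library per condition, so no difference below has a replicate check and no p-value is given. The cells were wild-type MEFs, prepared without the head and the fetal liver. The labels give embryonic day 13.5 to 14.4 and passage 3 to 7, and the study's methods give slightly different ranges for both. Per those methods the cells came from male and female embryos and were sorted for purity. How many embryos stand behind each library is not given in the sources used here, and the labels do not give the strain. Control MEFs were left in their growth medium. For oxidative stress, 10 µM sodium arsenite was added for 3 h, and for osmotic stress 100 mM NaCl for 3 h. For ER stress, 1 µM thapsigargin, which empties the calcium store of the endoplasmic reticulum (ER), was added for 10 h. In the remaining conditions, cells were kept for 10 h in glucose-free medium, in glutamine-free medium or at 0.1% oxygen (hypoxia). The 3 h and 10 h conditions therefore differ in time as well as in agent, and all 6 comparisons share the same control library.

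An imprinted gene is read mainly from 1 parental copy, and which copy is read depends on DNA methylation laid down in the egg or the sperm. Imprinted genes sit in clusters that share a control region, and within a cluster a noncoding RNA is often read from the mother's chromosome and a protein-coding gene from the father's, or the reverse. Many of them are strongly expressed in the embryo and its membranes, act on fetal growth through insulin-like growth factor signaling, the cell cycle or nutrient transport, and decline after birth. TPM sums over both parental copies, so these data do not show which copy was read.

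The fibroblast label was checked against markers. All 10 fibroblast markers were above 2 TPM on average, with a summed level of 10540 to 13085 TPM in the control and 5 conditions and 6328 TPM in ER stress. Markers of other cell types summed to 6.76 to 13.7 TPM for macrophages, 2.94 to 7.31 TPM for endothelium and 3.88 to 11.6 TPM for epithelium. Myogenic markers summed to 13.7 TPM in ER stress and 23.4 to 36.2 TPM elsewhere, with Myf5 listed at 0 in every library. Cartilage markers summed to 9.48 TPM in ER stress and 22.7 to 33.1 TPM elsewhere, and neural and glial markers to 128 TPM in ER stress and 24.2 to 39.6 TPM elsewhere. Erythroid markers summed to 1.01 TPM at most, with Hbb-bt and Hbb-bs listed at 0 throughout. The part of these markers in the differences below was not tested. In whole cultures, fewer cells of a type and less RNA per cell cannot be told apart. Genes above 0 TPM numbered 19819 to 21154 per library, and mitochondrially encoded genes took 5.09% to 9.25% of the TPM.

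The 10 genes fell into 3 ranges of expression. H19 was the most abundant, at 532 to 2639 TPM. Grb10, Meg3, Rian, Mest and Plagl1 had medians from 78.7 TPM (Plagl1) to 281 TPM (Grb10), and Dlk1, Cdkn1c, Peg3 and Peg10 lay below 53 TPM in every library. All 10 passed the filter of a mean of at least 2 TPM, as did 12909 genes in all, and none did so through 1 library only, since the lowest single value was 3.72 TPM (Peg10 in ER stress).

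**Figure D1:**
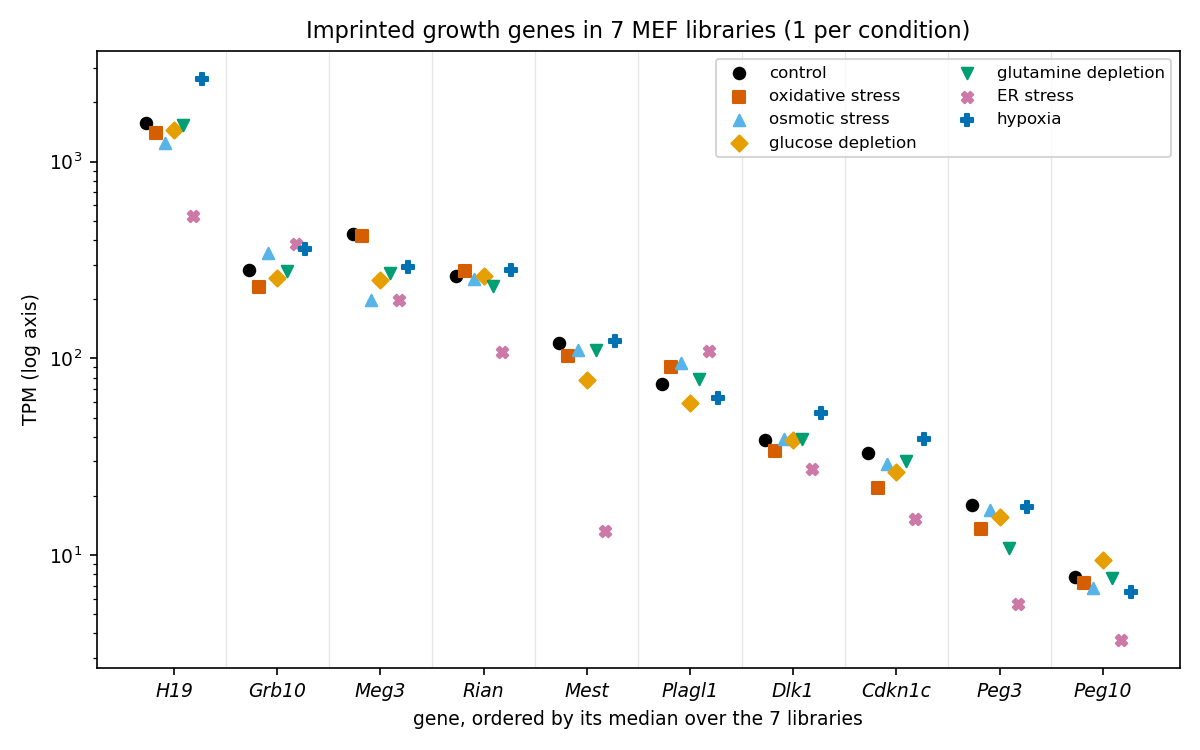
TPM on a log axis of the 10 genes in each of the 7 libraries, with 1 point per library and genes ordered by their median. The ER stress library is the lowest for 8 genes and the highest for Plagl1 (109 TPM) and Grb10 (381 TPM), and Mest at 13.2 TPM in ER stress lies farthest below its other libraries.

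Of the 7 calls among these genes, 6 were made in ER stress. A fall of more than 2-fold was seen there for 6 genes, Mest (-3.09), H19 (-1.57), Peg3 (-1.51), Rian (-1.28), Meg3 (-1.11) and Cdkn1c (-1.07, all log2), and 0 rose. Among all genes kept, 19.6% passed 2-fold in ER stress, 11.0% downward and 8.60% upward. The median change of the 10 genes was -1.09 against 0 for all genes. ER stress held the lowest value of the 7 libraries for 8 of the 10 genes and for 23.9% of all genes. In the same library the summed fibroblast markers were also at their lowest, and 3 of those 10 markers fell more than 2-fold (Lum -2.33, Col3a1 -2.07 and Pdgfrb -1.15), with a median of -0.86.

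Outside ER stress a single call was made, the fall of Meg3 in osmotic stress (-1.10), against 11.8% of all genes past 2-fold in that condition and 8.76% past it downward. Under oxidative stress, hypoxia and the lack of glucose or glutamine, 0 of the 10 genes passed 2-fold, where 8.78%, 6.21%, 4.24% and 6.41% of all genes did, in this order. The median changes of the 10 genes were set beside those of all genes, at -0.18 against -0.16 for oxidative stress and -0.10 against -0.12 for osmotic stress. For glucose depletion they were -0.16 against -0.02, for glutamine depletion -0.08 against -0.09, and for hypoxia 0.06 against -0.05.

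**Figure D2:**
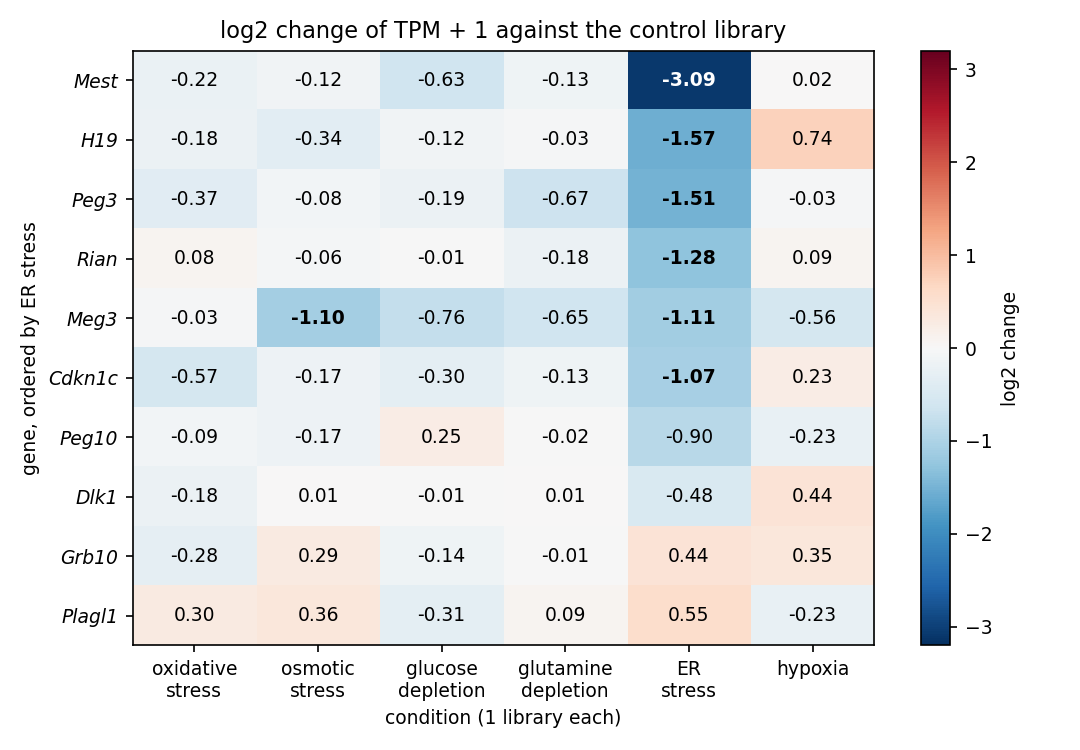
Differences of log2(TPM + 1) between each condition and the control library for the 10 genes, ordered by ER stress, with values past 2-fold in bold. The ER stress column holds 6 of the 7 values past 2-fold, and Meg3 in osmotic stress (-1.10) is the other.

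RefSeq promoter windows were at hand for 7 of the 10 genes, with 11 windows in all, and each printed window holds the 250 bases before an annotated start, 5′ to 3′. Capitals mark 3 short motifs, on either strand. The first, TGACGTCA, is the palindromic cyclic AMP response element bound by CREB and its ATF relatives. The second, CCAAT, is bound by the factor NF-Y, which is present in most cells. The third, CCACG, forms the other end of the ER stress response element, to which ATF6 binds together with NF-Y. Meg3 and Peg3 are printed because they were the only ones of the 7 genes whose windows held TGACGTCA, and Mest because it changed most in ER stress.
Meg3 promoter, GRCm38.p6, plus strand, chr12:109540746-109540995: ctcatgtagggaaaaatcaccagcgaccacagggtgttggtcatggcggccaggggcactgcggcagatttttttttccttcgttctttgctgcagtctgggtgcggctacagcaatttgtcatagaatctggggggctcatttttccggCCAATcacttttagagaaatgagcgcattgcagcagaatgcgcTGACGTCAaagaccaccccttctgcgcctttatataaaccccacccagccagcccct
Peg3 promoter, GRCm38.p6, minus strand, chr7:6730420-6730669: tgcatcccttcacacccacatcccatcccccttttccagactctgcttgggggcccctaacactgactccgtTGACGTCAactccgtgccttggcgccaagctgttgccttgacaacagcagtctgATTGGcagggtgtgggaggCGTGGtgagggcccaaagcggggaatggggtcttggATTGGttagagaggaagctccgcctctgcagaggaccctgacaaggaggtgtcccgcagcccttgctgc
Mest promoter, GRCm38.p6, plus strand, chr6:30737803-30738052: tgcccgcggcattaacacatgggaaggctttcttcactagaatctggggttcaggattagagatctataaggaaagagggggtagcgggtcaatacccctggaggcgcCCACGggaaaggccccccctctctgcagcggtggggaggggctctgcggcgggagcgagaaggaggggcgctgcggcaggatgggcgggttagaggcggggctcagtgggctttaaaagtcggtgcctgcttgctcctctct

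TGACGTCA began 57 bases before the start in the printed Meg3 window and 178 bases before it in that of Peg3. The other Meg3 window did not hold it, and 1.55% of 32851 promoter windows of the same length did. The NF-Y site CCAAT occurred at 1 place in the printed Meg3 window and at 2 places in the Peg3 window, and 33.8% of all windows held it. The other motif, CCACG, occurred at 1 place each in the printed Peg3 and Mest windows. Among the 11 windows, 7 held it, including a pair of Mest windows that overlap but not the further Mest window. The 7 came from 5 genes (Dlk1, Peg3, Plagl1, Grb10 and Mest). Plagl1 and Grb10 among them were above control in ER stress, and 28.3% of all windows held the motif. The full ER stress response element, which joins the last of these motifs to the NF-Y site by a spacer of fixed length, was found in 0.113% of all windows and in none of the 11. TGATGNAA, the composite site of ATF4 and C/EBP factors, was found in 3.45% of all windows and in none of the 11. These are matches of letters, not sites shown to be bound.

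Of the 10 genes, 3 give noncoding RNAs, all known to be read from the mother's copy. H19 (GRCm38, chr7:142575529-142578143, minus strand) is a long noncoding RNA that lies beside Igf2 and carries a microRNA that restrains growth. It measured 1581 TPM in control, 1395 in oxidative stress, 1249 in osmotic stress, 1449 without glucose, 1545 without glutamine, 532 in ER stress and 2639 TPM in hypoxia. ER stress and hypoxia thus stood at opposite ends, while the other 5 libraries lay between 1249 and 1581 TPM. The log2 change was -1.57 in ER stress and 0.74 in hypoxia, the latter short of 2-fold.

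The mature strands of the microRNAs inside H19 and Mest are shown because these are the host RNAs that fell furthest in ER stress. Capitals mark the seed, bases 2 to 8, which pairs with target RNAs.
miR-675-5p, in an exon of H19: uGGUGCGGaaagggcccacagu
miR-675-3p, in an exon of H19: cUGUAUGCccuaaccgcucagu
miR-335-5p, in an intron of Mest: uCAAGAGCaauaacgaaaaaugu
miR-335-3p, in an intron of Mest: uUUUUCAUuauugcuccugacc

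RefSeq placed 13 mature strands from 7 microRNA genes inside H19, Meg3, Rian and Mest, and the 13 seeds all differed. The microRNA genes were listed at 0 TPM in every library except Mir341 in Rian, which reached 6.53 TPM. Libraries of poly(A)-selected mRNA do not measure mature microRNAs, so the levels of these strands are not known here.

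Meg3 (chr12:109541001-109571726, plus strand) is a long noncoding RNA of the Dlk1-Meg3 cluster with growth-restraining activity in cultured cells. Its levels were 428 TPM in control, 419 in oxidative stress, 199 in osmotic stress, 251 without glucose, 273 without glutamine, 197 in ER stress and 290 TPM in hypoxia. Control and oxidative stress were high, the other 5 libraries were lower, and osmotic and ER stress lay within 1.01-fold of each other. Meg3 was below control in all 6 conditions on the scale used, with log2 changes of -0.03 in oxidative stress, -1.10 in osmotic stress, -0.76 without glucose, -0.65 without glutamine, -1.11 in ER stress and -0.56 in hypoxia. Its change in osmotic stress fell short of 2-fold, at -0.98, once each condition was centred on the median change of all genes. Against the median of the 6 other libraries in place of the control, it was -0.50 in osmotic and -0.51 in ER stress, and its sign turned in 3 conditions, to 0.67 in oxidative stress, 0.15 in hypoxia and 0.02 without glutamine. In oxidative stress, where Meg3 was near the control, the sign also turned with centring (0.13) and without mitochondrially encoded genes (0.01).

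Rian (chr12:109603940-109661716, plus strand) is a noncoding RNA downstream of Meg3 that hosts many small nucleolar RNAs. It measured 264 TPM in control, 278 in oxidative stress, 253 in osmotic stress, 261 without glucose, 233 without glutamine, 108 in ER stress and 281 TPM in hypoxia. Without ER stress its libraries spanned 1.21-fold, the narrowest range of the 10 genes, and ER stress lay 2.15-fold below the lowest of them (log2 change -1.28). A row with the identifier AC152063.6 had identical values in all 7 libraries, and a row AC165954.1 had values identical to those of Dlk1. How reads were shared between such rows cannot be told from TPM. The levels of Rian and Dlk1 may therefore be understated. Their changes from control are the same within 0.01 when the rows are added, since condition and control then rise by the same factor.

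Meg3 and Rian did not keep 1 ratio. Meg3 was 1.62 times Rian in control, 1.51 times in oxidative stress and 1.82 times in ER stress. In the remaining libraries the ratio was 0.787 in osmotic stress, 0.963 without glucose, 1.17 without glutamine and 1.03 in hypoxia. Adding the identical row multiplies Rian by 2 in every library, so the order of the libraries cannot change. The ratio was then below 1 in every library, from 0.393 in osmotic stress to 0.912 in ER stress. Mirg, the noncoding RNA farther downstream in the cluster, measured 19.5 TPM in control, 7.34 in ER stress (-1.29) and 14.2 in osmotic stress (-0.43). In ER stress Meg3, Rian and Mirg were all past 2-fold, whereas in osmotic stress only Meg3 was. The part of Meg3 isoforms and of its annotation in this was not tested.

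Dlk1 (chr12:109452823-109463336, plus strand) is read from the father's copy and encodes a membrane-bound and shed protein of the Notch ligand family that holds precursor cells back from differentiation. It measured 38.6 TPM in control, 33.8 in oxidative stress, 38.9 in osmotic stress, 38.4 without glucose, 38.9 without glutamine, 27.3 in ER stress and 52.6 TPM in hypoxia. Control and 3 conditions lay within 1 TPM of each other, with hypoxia above (0.44) and ER stress below (-0.48), neither past 2-fold. Dio3, which encodes the enzyme that inactivates thyroid hormone and lies at the far end of the cluster, measured 5.02 TPM in control, 0.141 in ER stress (-2.40), 1.84 in glutamine depletion (-1.09) and 1.60 TPM in hypoxia (-1.21). Begain, next to Dlk1, was past 2-fold in glucose depletion alone (5.15 to 1.82 TPM, -1.12), and Rtl1 was below 0.22 TPM in every library.

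**Figure D3:**
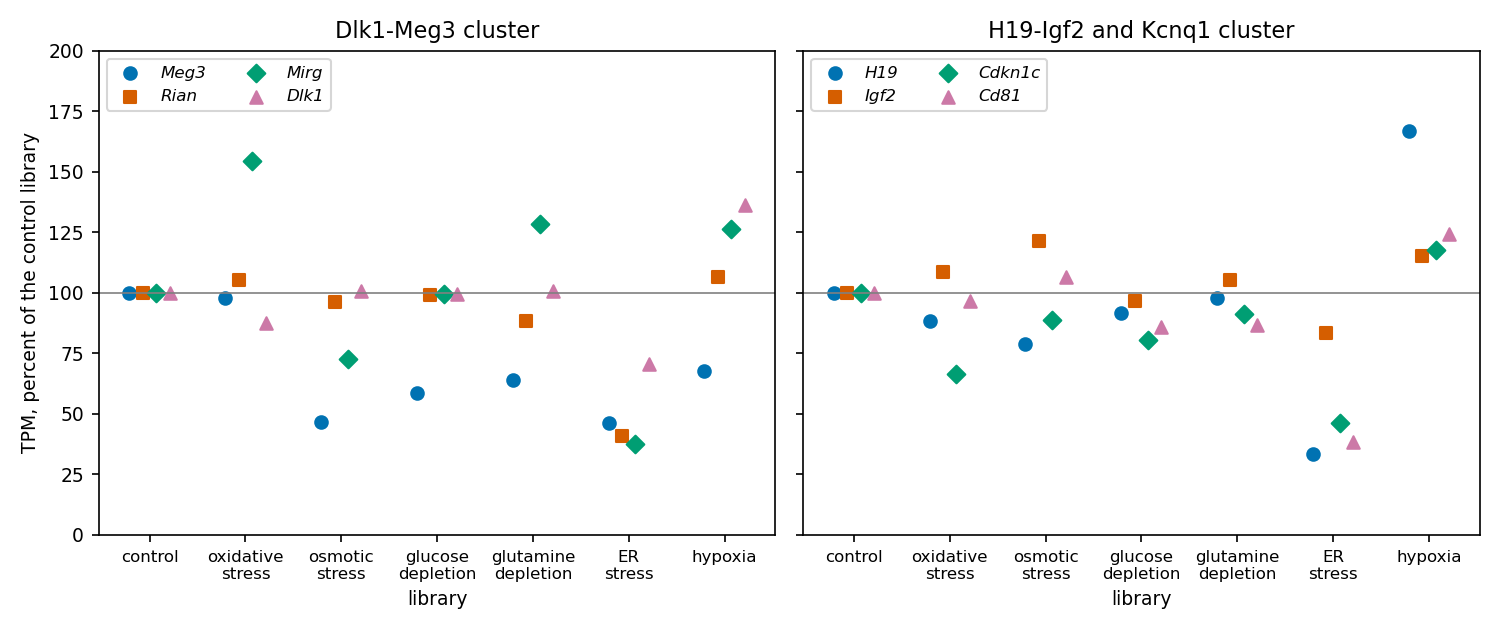
TPM of 4 genes of the Dlk1-Meg3 cluster and 4 genes of the H19-Igf2 and Kcnq1 cluster as a percentage of the control library (grey line at 100), with 1 point per library. On this relative scale Meg3 lies below Rian in all conditions but ER stress, H19 lies above Igf2 only in hypoxia, and Igf2 stays near the control in ER stress (788 against 945 TPM) where H19, Cdkn1c and Cd81 are past 2-fold below it.

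Peg3 (chr7:6703892-6730431, minus strand) encodes a zinc finger protein that acts on growth and maternal care. Its values were 17.9 TPM in control, 13.6 in oxidative stress, 16.9 in osmotic stress, 15.6 without glucose, 10.9 without glutamine, 5.65 in ER stress and 17.5 TPM in hypoxia. ER stress was lowest (-1.51) and glutamine depletion next (-0.67). Zim1, its maternally read neighbor, measured 3.38 TPM in control, 0.982 in ER stress (-1.15) and 1.19 in osmotic stress (-1.001). Usp29, the other neighbor, was below 0.55 TPM throughout.

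Mest (chr6:30723547-30748465, plus strand) encodes a hydrolase-like protein of the ER membrane and marks growing mesoderm and fat. It measured 120 TPM in control, 103 in oxidative stress, 111 in osmotic stress, 77.5 without glucose, 110 without glutamine, 13.2 in ER stress and 122 TPM in hypoxia. The ER stress value lay 5.87-fold below the next-lowest library, with a log2 change of -3.09, and 156 of 12909 genes fell further. Glucose depletion was the second-lowest, at -0.63. Copg2, which overlaps Mest on the opposite strand and encodes a coat protein of vesicles that return from the Golgi to the ER, measured 20.5 TPM in control and 18.7 TPM in ER stress (-0.13). Since the quantification is not stated to have used strand, reads from the overlap of Mest and Copg2 cannot be told apart.

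Peg10 (chr6:4747306-4760517, plus strand), a gene derived from a retrotransposon and needed in the placenta, was the lowest of the 10. It measured 7.77 TPM in control, 7.25 in oxidative stress, 6.79 in osmotic stress, 9.43 without glucose, 7.66 without glutamine, 3.72 in ER stress and 6.48 TPM in hypoxia. Its ER stress change of -0.90 was short of 2-fold and passed it with a pseudocount of 0.1 TPM (-1.04). Sgce, which encodes a sarcoglycan and starts beside Peg10, was 5.98 times Peg10 in control and 9.36 times in ER stress, at 46.4 and 34.8 TPM. In hypoxia it was 8.84 times Peg10, at 57.2 TPM, and in the remaining conditions 4.55 to 6.59 times. Tfpi2, a protease inhibitor in the same cluster, measured 5.75 TPM in control and 0.532 TPM in ER stress (-2.14).

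Plagl1 and Grb10 were the only genes of the 10 above control in ER stress. Plagl1 (chr10:13060504-13131694, plus strand) encodes a zinc finger factor that restrains proliferation and activates other imprinted genes. It measured 74.0 TPM in control, 91.0 in oxidative stress, 95.4 in osmotic stress, 59.5 without glucose, 78.7 without glutamine, 109 in ER stress and 62.8 TPM in hypoxia. ER stress was the highest library and glucose depletion the lowest, and no change passed 2-fold (0.55 and -0.31).

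Grb10 (chr11:11930508-12038683, minus strand) encodes an adaptor that binds the insulin and IGF1 receptors and dampens their signal. It measured 281 TPM in control, 231 in oxidative stress, 345 in osmotic stress, 255 without glucose, 279 without glutamine, 381 in ER stress and 359 TPM in hypoxia. ER stress (0.44), hypoxia (0.35) and osmotic stress (0.29) were above control, none of them past 2-fold. Cobl, its neighbor, was also at its highest in ER stress (5.87 TPM against 3.64 in control, 0.57).

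Cdkn1c (chr7:143458339-143461050, minus strand) encodes p57, an inhibitor of cyclin-dependent kinases (CDKs) read from the mother's copy. It measured 33.0 TPM in control, 21.9 in oxidative stress, 29.2 in osmotic stress, 26.5 without glucose, 30.2 without glutamine, 15.2 in ER stress and 38.8 TPM in hypoxia. ER stress was lowest (-1.07), oxidative stress next (-0.57) and hypoxia highest (0.23). The ER stress call was near its threshold, being -0.91 with a pseudocount of 5 TPM and -0.92 against the median of the 6 other libraries. Of the 7 genes of CDK inhibitors, 3 fell more than 2-fold in ER stress, namely Cdkn2d (-1.31), Cdkn2c (-1.25) and Cdkn1c, and 0 rose, beside 11.0% of all kept genes down and 8.60% up. Cdkn2d also fell in oxidative stress (-1.16) and glutamine depletion (-1.37). Cdkn1a, which encodes p21, was the most abundant of the list, at 364 TPM in control and 355 TPM in ER stress (-0.04). Gm44732, annotated antisense to Cdkn1c, was listed at 1.08 TPM in osmotic stress and at 0 elsewhere.

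Hypoxia was where 5 of the 10 genes had their highest value (H19, Rian, Dlk1, Cdkn1c and Mest), against 15.7% of all genes. For Rian and Mest the margin was small, at 281 against 278 TPM and 122 against 120 TPM. H19 had the widest margin, at 2639 TPM in hypoxia against 1581 TPM in control.

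Igf2, which encodes insulin-like growth factor 2 and shares its enhancers with H19, varied less than H19. It measured 945 TPM in control, 1028 in oxidative stress, 1148 in osmotic stress, 912 without glucose, 997 without glutamine, 788 in ER stress and 1089 TPM in hypoxia. H19 exceeded Igf2 in every library but ER stress. The ratio of H19 to Igf2 was 1.67 in control, 2.42 in hypoxia and 0.675 in ER stress, and 1.09 to 1.59 in the remaining 4 conditions. A 70-base annotated RNA on the opposite strand within H19, Gm27786, was listed at 85.2 TPM in oxidative stress and 20.2 TPM in ER stress and at 0 elsewhere.

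The wider list took in genes of the imprinted clusters, neighbors included, and other imprinted genes. Whether each is imprinted in MEFs was not tested. The list held 73 symbols, of which 71 were in the table and 46 were kept by the expression filter. In ER stress 14 of the 46 fell more than 2-fold (30.4%) and 0 rose, with a median change of -0.37, beside 11.0% of all kept genes that fell, 8.60% that rose and a median of 0. Leaving out the 10 genes, 8 of 36 fell (22.2%) and 0 rose, with a median of -0.25, beside the same 11.0% and 8.60%. Besides Dio3, Tfpi2, Mirg and Zim1, these were Slc38a4 (-1.47), an amino acid transporter, Peg13 (-1.44), a noncoding RNA, Cd81 (-1.38) and Snurf (-1.37). Cd81 encodes a tetraspanin and lies in the Kcnq1 region. Snurf is read from the same transcript as Snrpn (-0.19), and how reads were shared between their rows cannot be told from TPM. Among the abundant genes of the list, Gnas, which encodes a G protein subunit, had a change of -0.01 in ER stress, and Igf2r, which clears IGF2 from the cell surface, measured 84.9 TPM in control and 78.3 TPM in ER stress (-0.11).

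In each of the other 5 conditions at most 2 of the 46 genes were past 2-fold (4.35%), whereas the share of all kept genes was 4.24% to 11.8%. In oxidative stress Nnat, which encodes neuronatin, rose (3.15 to 9.52 TPM, 1.34) and Peg12 fell (5.04 to 1.90 TPM, -1.06). In osmotic stress Meg3 and Zim1 fell. The only such gene was Dio3 in hypoxia and in glutamine depletion, and Begain without glucose.

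**Figure D4:**
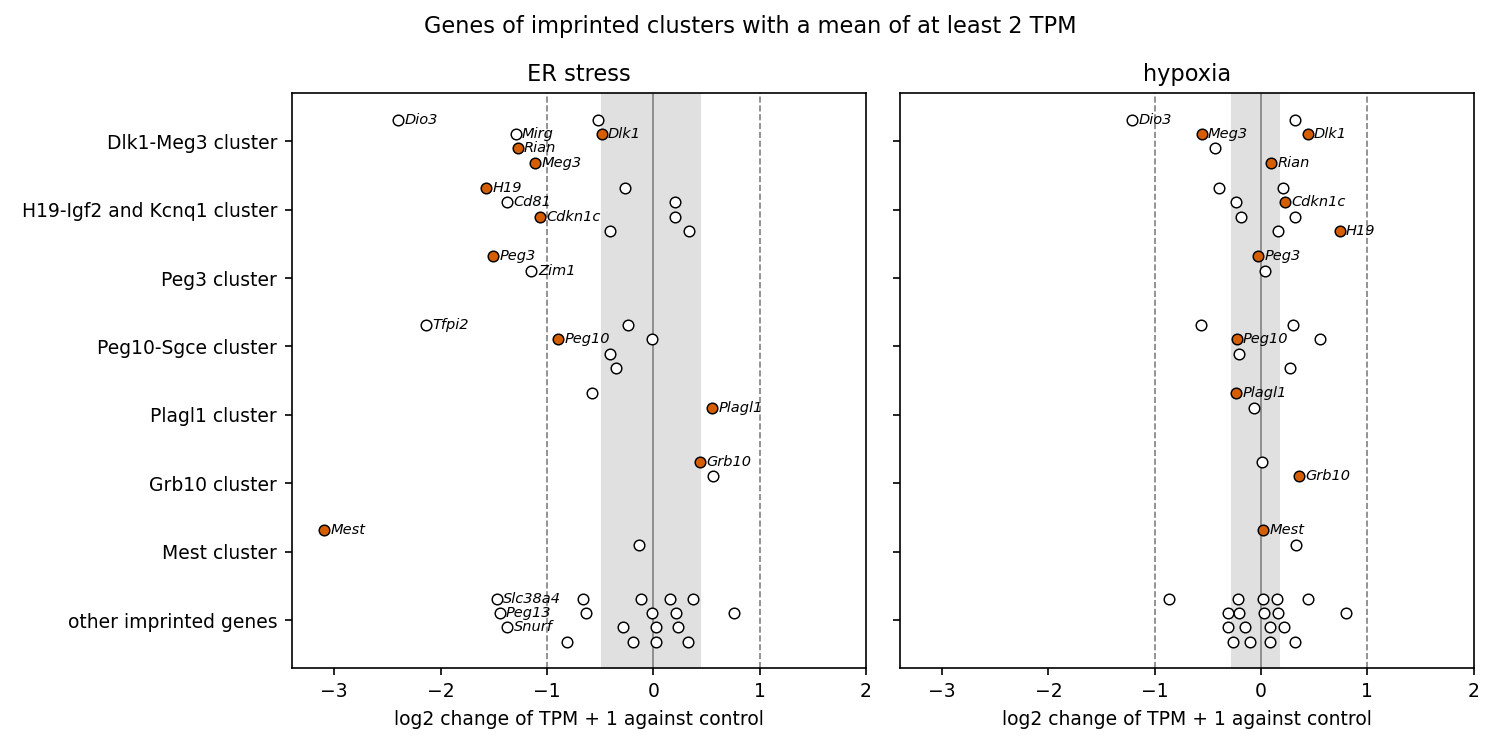
Log2 changes of the 46 kept genes of the wider list, cluster neighbors included, in ER stress (left) and hypoxia (right). There is 1 point per gene and 1 line per cluster, with the 10 genes filled. Dashed lines are at 2-fold, and the grey band spans the middle quartiles of all 12909 genes. In ER stress 14 genes lie beyond the left dashed line and 0 beyond the right, while in hypoxia Dio3 is the only gene beyond either line.

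Genes of the insulin-like growth factor axis were counted in the same way. Of 13 measured, 3 fell more than 2-fold in ER stress and 0 rose, with a median of -0.58, beside 11.0% of all kept genes down, 8.60% up and a median of 0. They were Igfbp4, a secreted binding protein (805 to 206 TPM, -1.96), Igf1 (9.40 to 3.12 TPM, -1.34) and the adaptor Irs1 (-1.33). Irs1 also fell in oxidative stress (-1.36) and glutamine depletion (-1.20). Insr, the insulin receptor that Grb10 binds, measured 8.69 TPM in control and 15.7 TPM in ER stress (0.79).

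For each of the 6 genes past 2-fold, the kept genes with the most similar set of 6 changes were looked up, by the root mean square of the differences in log2 change over the 6 conditions. Nearest to H19 were Gng11 (0.115) and Lsp1 (0.133), nearest to Meg3 were Tle2 (0.187) and Lmcd1 (0.209), and nearest to Peg3 were Gpsm2 (0.112) and Gdf11 (0.129). Nearest to Rian, after its identical row, was Fstl1 (0.0926). Cdkn1c was nearest to Kdelc2 (0.0960) and Col8a2 (0.121), and Mest to Pbxip1 (0.172) and Omd (0.178). The 6 changes share 1 control library, so part of any likeness comes from it.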

How the data were processed

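RNA was purified with on-column DNase digestion, and libraries were made with a stranded, poly(A)-selected mRNA kit and sequenced in pairs of 76 bp. The authors quantified the reads with Kallisto 0.43.1 (default settings) on the Ensembl release 90 cDNA of GRCm38. The deposited values are TPM per gene, each the sum over its transcripts. Read counts cannot be had from TPM, and the depth of each library and its counting error are therefore unknown.

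The change of a gene is its log2(TPM + 1) minus that of the control library, computed with Python 3.11.15, numpy 2.4.6 and pandas 2.3.3. Genes entered the counts if their average over all libraries reached 2 TPM, a filter chosen here, and those past 2-fold were called, a threshold the study's methods give for the stress conditions. The steps were run on simulated copies of the control library with planted changes, which checks the arithmetic and not the spread between cultures. With 1 library per condition no test was run. Locations came from GENCODE M21 on GRCm38, and promoter and microRNA sequences from RefSeq GRCm38.p6. Alternatives are given in the closing section.

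The 10 genes and all gene lists were chosen with earlier results of these data known. The rule for named genes takes the 10 genes, genes of the same imprinted clusters, listed genes past 2-fold in at least 1 condition, and the 2 genes nearest in pattern to each of the 10 that passed 2-fold. Gnas, Igf2r, Insr, Snrpn, Cdkn1a, Dnmt1, Airn, Gm27786 and Gm44732 were named after their values were seen.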

Additional observations from a re-analysis of the deposited data

How the results depend on the processing

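Of 360 changes recomputed for the 10 genes under alternatives, 354 kept their side of 2-fold, 5 lost the call and 1 gained it. The sign turned in 29, all of them changes short of 2-fold and 0 of them in ER stress, with 15 against the median reference, 11 with centring and 3 without mitochondrially encoded genes. The largest change whose sign turned was that of Meg3 without glutamine (-0.65). Each was recomputed with a pseudocount of 0.1 or 5 TPM, after centring, after removal of mitochondrially encoded genes, against the median of the 6 other libraries, and with identical rows added together, the last chosen after seeing the data. Some of the 360 could not differ from the main value. Adding identical rows leaves every gene but Rian and Dlk1 unchanged. Centring leaves ER stress unchanged, since the median change of all genes there was 0. Thresholds of 1.5-fold and 3-fold, no filter and a minimum of 10 TPM were applied to the counts. The single call in osmotic stress became 0 with centring, at 3-fold and with the median reference. At 1.5-fold, 2 genes were called without glucose, 2 without glutamine and 1 in hypoxia. In ER stress the 6 calls became 1 (Mest) at 3-fold and 4 to 7 under the other alternatives. Centring moved all changes by 0.16 in oxidative and 0.12 in osmotic stress. Adding identical rows necessarily lowered the ratio of Meg3 to Rian and of Meg3 to Dlk1, by the same factor in every library. No paired analysis was possible because each condition had 1 library. With unknown depth and no replicates, differences between neighboring values cannot be told from the spread between cultures.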

Other observations

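Genes that keep imprints in place were measured in the same libraries. Of 12 listed, 9 were kept, of which 1 rose and 0 fell more than 2-fold in ER stress (all kept genes 8.60% and 11.0%). In osmotic stress 0 rose and 2 fell, beside 8.76% of all kept genes down and 11.8% past 2-fold in either direction. In hypoxia 1 rose and 0 fell, beside 6.21% of all kept genes past 2-fold in either direction. Zfp57, a zinc finger protein that protects methylated imprints, measured 21.8 TPM in control, 6.81 TPM in osmotic stress (-1.55) and 88.1 TPM in ER stress (1.96), the opposite direction to the 6 imprinted genes that fell there. Zfp445, of the same function, measured 28.2 TPM in control and 12.2 TPM in osmotic stress (-1.15). Tet2, which oxidizes methylated cytosine, measured 3.08 TPM in control and 12.0 TPM in hypoxia (1.68). Dnmt1, the maintenance methyltransferase, measured 43.1 TPM in control and 21.1 TPM in ER stress, just short of 2-fold on the scale used. Methylation was not measured in the files used here.

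Around Dlk1, 9 of 14 listed genes of the Notch pathway were kept. Of these, 1 rose and 3 fell in ER stress, beside 8.60% of all kept genes up and 11.0% down. Their median change there was 0.07. In ER stress Hey2, a target gene of Notch signaling, rose from 2.37 to 26.2 TPM (3.01), whereas Hes1, another target, fell from 79.7 to 22.4 TPM (-1.79). The receptor Notch3 (-1.15) and the Dlk1 relative Dlk2 (-1.95) fell there too. In hypoxia Notch3 (1.25) and Hey1 (1.37) rose, and in glutamine depletion the ligand Jag1 did (20.1 to 41.4 TPM, 1.00). Of all kept genes, 6.21% passed 2-fold in either direction in hypoxia and 6.41% in glutamine depletion.

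Of 5 other nuclear noncoding RNAs listed, 3 were kept. In osmotic stress 1 of them fell more than 2-fold and 0 rose, beside 8.76% of all kept genes down. Neat1 was listed at 133 TPM in control and 2.01 TPM in osmotic stress (-5.48), a larger fall than that of Meg3. Malat1 measured 99.1 and 111 TPM in these libraries, and Airn 4.76 and 10.2 TPM (0.96). Neat1 was also past 2-fold in ER stress (56.2 TPM, -1.23), and Malat1 in oxidative stress (201 TPM, 1.01).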
